A study of Mus musculus with 30 samples.

Results

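The genes described here are 10 members of the transforming growth factor beta (TGF-beta) pathway: the ligands Tgfb1, Tgfb2 and Tgfb3, and the SMAD2/3 target genes Ccn1, Ccn2, Postn, Fn1, Smad7, Skil and Tgif1. They were named by symbol, and every probe set annotated to 1 of these symbols alone was taken, which gave 18 of the 31563 such probe sets and 10 of 17782 genes on the array. All 10 genes were measured and no filter on low signal was applied. RNA of kidney and skeletal muscle from 15 mice aged 6 weeks was hybridised to 30 Affymetrix mouse genome arrays, 1 array for each tissue of each animal. In each tissue 4 Kif3aΔTub mice given sActRIIB-Fc, 4 Kif3aΔTub mice given PBS, 4 wild-type (WT) mice given sActRIIB-Fc and 3 WT mice given PBS were compared. The labels also write the mutant genotype as Kif3aKSPCre, after the KSP-Cre driver of kidney tubule epithelium, so only tubule cells are meant to lose Kif3a, a motor subunit needed to build primary cilia. sActRIIB-Fc, called the trap here, is a soluble activin receptor IIB fused to an antibody Fc part. It was injected into the peritoneum at 10 mg/kg weekly, 2 times, and binds activins and related ligands outside the cell. The sources used here give neither the sex of the mice, nor which muscle was taken, nor whether the WT mice carried Cre.

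TGF-beta ligands are secreted in a latent complex and act, once released, through the receptors Tgfbr2 and Tgfbr1, which phosphorylate the transcription factors SMAD2 and SMAD3. Activins use other receptors but the same SMAD2 and SMAD3, and the trap binds activins rather than the 3 TGF-beta ligands. In fibrosing kidney the pathway is known for driving matrix genes in fibroblasts and injured tubule cells, and in muscle and tendon it regulates connective tissue. Among the members, Ccn1 and Ccn2 encode matricellular CCN proteins that are also targets of YAP and its TEAD partners, Fn1 encodes fibronectin, and Postn encodes the matricellular protein periostin. Smad7 encodes an inhibitory SMAD, and Skil and Tgif1 encode nuclear repressors of SMAD transcription, so these 3 act as brakes on the pathway that feeds them.

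On the mouse build GRCm38.p6 the RefSeq annotation places the ligand genes Tgfb1 at chr7:25687002-25705077, Tgfb2 at chr1:186622787-186709697 and Tgfb3 at chr12:86056743-86079041. The matrix and CCN genes lie as follows: Ccn1 at chr3:145646971-145649985, Ccn2 at chr10:24595442-24598683, Postn at chr3:54359267-54391041 and Fn1 at chr1:71585473-71653280. Of the feedback genes, the positions used here are Skil at chr3:31095058-31122923 and Tgif1 at chr17:70844205-70853532.

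The 250 bases before the annotated start site are printed for 4 members that were all higher in mutant kidneys, 2 ligands and 2 matricellular genes, so that the start-site regions of genes that moved together can be set side by side. The sequences are from RefSeq (GRCm38.p6), 5′ to 3′ on the gene's strand: Tgfb1 chr7:25686752-25687001 (plus strand), Tgfb2 chr1:186705990-186706239 (minus strand), Ccn1 chr3:145649986-145650235 (minus strand) and Postn chr3:54359017-54359266 (plus strand). The start site used for Tgfb2 lies inside the annotated gene span, and that of Postn is the more upstream of 2. Capitals mark matches on either strand to the SMAD box CAGAC or to the TEAD motif GGAATG, and the AP-1 motif TGANTCA was searched as well.
Tgfb1: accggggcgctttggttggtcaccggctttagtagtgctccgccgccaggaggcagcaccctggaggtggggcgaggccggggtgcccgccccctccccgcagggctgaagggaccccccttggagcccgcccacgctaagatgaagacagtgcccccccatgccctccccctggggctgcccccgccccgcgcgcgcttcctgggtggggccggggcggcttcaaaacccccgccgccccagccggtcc
Tgfb2: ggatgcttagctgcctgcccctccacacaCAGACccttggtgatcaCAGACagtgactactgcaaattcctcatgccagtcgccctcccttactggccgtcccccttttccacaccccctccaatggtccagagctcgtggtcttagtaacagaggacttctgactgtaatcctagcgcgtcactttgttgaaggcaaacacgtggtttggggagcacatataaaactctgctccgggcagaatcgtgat
Ccn1: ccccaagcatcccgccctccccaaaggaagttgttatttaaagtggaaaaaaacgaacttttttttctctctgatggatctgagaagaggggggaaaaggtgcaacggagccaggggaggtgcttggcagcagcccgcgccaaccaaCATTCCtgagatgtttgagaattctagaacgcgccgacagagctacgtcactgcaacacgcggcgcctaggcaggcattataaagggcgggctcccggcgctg
Postn: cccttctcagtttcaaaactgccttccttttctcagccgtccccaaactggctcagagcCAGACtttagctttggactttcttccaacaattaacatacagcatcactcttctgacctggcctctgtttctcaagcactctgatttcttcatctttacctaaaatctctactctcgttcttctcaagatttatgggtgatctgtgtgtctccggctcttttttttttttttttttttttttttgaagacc
The Tgfb2 window held 2 SMAD boxes, at -221 and -204 from the start site, and the Postn window held 1, at -191. Ccn1 had 1 TEAD match, at -103, and no SMAD box in this window. The Tgfb1 window held none of the 3 motifs. The most upstream of 5 listed Tgif1 windows, not printed, held 1 SMAD box at -201. No matches of different motifs overlapped. Of the 32851 mouse windows of this length, 42.2% held a SMAD box, 12.6% a TEAD motif and 6.75% an AP-1 motif. A match is a description of the letters in a window and not evidence of binding.

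Arrays of the same group correlated at 0.976 or more over all probe sets, and array medians lay between 5.94 and 6.24 on the log2 scale. Kif3a itself, on its brightest probe set, lay at 7.37 to 8.001 in kidneys of trap-treated mutants and at 7.22 to 7.48 in those of untreated mutants, against 7.34 to 7.84 in trap-treated WT and 7.76 to 7.89 in untreated WT kidneys. The untreated groups did not overlap, as for 59.7% of all genes in this comparison, in either direction. In muscle, where Kif3a was not targeted, this probe set overlapped, at 6.71 to 7.42 in untreated mutants and 7.08 to 7.76 in untreated WT. The dimmest Kif3a probe set did not overlap in muscle, with untreated mutants at most at 5.31 and untreated WT at least at 5.33. No label places the Kif3a probes relative to the deleted part, and whether these levels reflect the deletion was not tested. Tissue identity was clear from its markers: the mean log2 signal of 8 skeletal muscle fibre markers was 14.09 to 14.16 in all muscle arrays and 4.33 to 4.82 in all kidney arrays, and that of 8 proximal tubule markers was 8.42 to 12.19 in kidney and 4.56 to 5.01 in muscle. In whole tissue, fewer cells of a type and less RNA per cell cannot be told apart.

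The first comparison asked how loss of Kif3a in tubules changed the pathway in kidney without the trap. All 10 members were higher in mutant kidneys, with a median log2 difference of 1.83, against -0.08 over all 17782 genes. The background was wide, since 50.9% of all genes were called in this comparison, in either direction, at a Benjamini-Hochberg adjusted p under 0.05 in limma. On their leading probe set, the one with the highest mean signal in the tissue, the mutant and WT values did not overlap for any of the 10 members, as for 59.7% of all genes. Of the 18 probe sets 16 were called higher and 2 were not called, against 49.3% of all probe sets called in either direction. The 2 were the dim second probe sets of Skil (difference -0.03) and Tgfb1 (difference -0.13), whose leading probe sets both rose.

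Of the ligands, Tgfb2 differed most. It had log2 intensities of 8.14, 7.86, 7.58 and 8.03 in the 4 untreated mutant kidneys, against 5.76, 5.42 and 5.91 in the 3 untreated WT kidneys. The difference was 2.20 (95% interval 1.83 to 2.58, adjusted p 9.7e-08 in limma), a 4.60-fold rise, and the other 3 Tgfb2 probe sets rose by 1.12, 2.76 and 2.81. Tgfb3 had 6.93, 6.24, 6.95 and 6.70 in mutant kidneys and 5.02, 5.24 and 4.91 in WT kidneys, a 3.14-fold rise (log2 1.65, interval 1.11 to 2.19, adjusted p 6.2e-05). Tgfb1, the best known profibrotic isoform, had 7.06, 6.84, 7.29 and 7.03 in mutant kidneys and 6.04, 5.85 and 6.05 in WT kidneys. On the leading probe sets its rise was the smallest of the ligands, 2.10-fold (log2 1.07, interval 0.76 to 1.39, adjusted p 2.3e-05). In each ligand every mutant kidney lay above every WT kidney.

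Of the matrix and CCN genes, Ccn2, Fn1 and Ccn1 had larger log2 differences on their leading probe sets than the leading probe set of any ligand, although 2 dimmer Tgfb2 probe sets rose by more than Ccn1. Postn lay between Tgfb2 and Tgfb3 on the leading probe sets. Ccn2, which encodes connective tissue growth factor, had 12.82, 12.17, 12.77 and 13.09 in mutant kidneys, against 9.17, 9.43 and 9.11 in WT kidneys. This 11.1-fold rise (log2 3.48, interval 2.75 to 4.20, adjusted p 7.4e-07) was the largest of the 10 on the leading probe sets. Fn1 had 11.44, 10.81, 11.83 and 11.83 in mutant kidneys and 8.28, 8.09 and 8.46 in WT kidneys, a 9.19-fold rise (log2 3.20, adjusted p 2.8e-07), and its dimmer probe set rose by 2.38. Ccn1 had 10.09, 9.51, 9.95 and 10.28 in mutant kidneys and 7.58, 7.23 and 7.30 in WT kidneys, a 6.00-fold rise (log2 2.58, adjusted p 1.4e-07). Postn rose 4.04-fold (log2 2.02, adjusted p 7.2e-06), with 8.94, 8.36, 9.04 and 8.93 in mutant kidneys, against 7.08, 6.20 and 7.12 in WT kidneys. One of the mutant kidneys and one of the WT kidneys lay apart below the others of their group for Postn, without making the groups overlap.

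The feedback genes rose as well, by amounts between those of Smad7 and Tgif1. Tgif1 had 8.36, 8.13, 8.20 and 8.04 in mutant kidneys and 7.05, 6.79 and 6.68 in WT kidneys, a 2.54-fold rise (log2 1.34, interval 1.06 to 1.62, adjusted p 7.5e-07). Skil rose 2.14-fold (log2 1.10, adjusted p 0.00011), with 10.14, 10.02, 10.26 and 10.29 in mutant kidneys and 9.05, 9.20 and 8.98 in WT kidneys. Smad7 had 8.65, 9.06, 8.77 and 8.42 in mutant kidneys and 7.91, 8.20 and 7.84 in WT kidneys, a 1.67-fold rise (log2 0.74, adjusted p 0.000356). It was the smallest change of the 10, and its second probe set rose by 0.56.

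**Figure D1:**
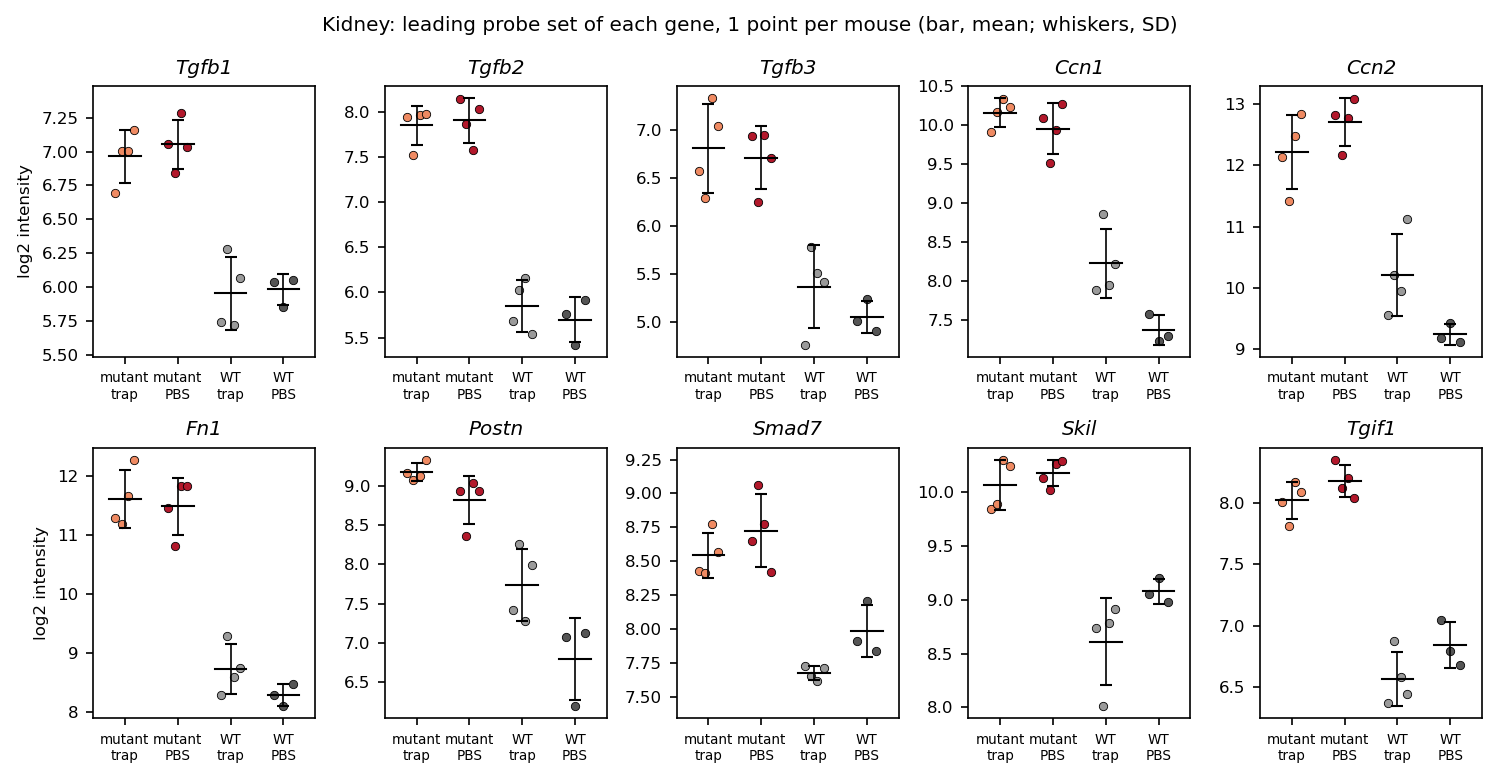
Log2 intensity of the leading probe set of each of the 10 members in kidney, 1 point for each mouse, with the group mean as a bar and the SD as whiskers; n = 4 for each group except untreated WT, n = 3. In every panel all mutant kidneys, with or without the trap, lie above all WT kidneys.

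Other genes of the pathway were examined from lists by role, and counts of genes that rose or fell are of called genes only. These counts stand against 50.9% of all genes called in this comparison, in either direction. The 6 of 12 inhibitors and feedback genes and the 2 of 4 other CCN genes called lay near that share. Of 21 measured other SMAD2/3 targets, 19 rose, none fell, and the median log2 difference was 2.47. Timp1, which blocks matrix metalloproteinases, had a rise of 4.62 (24.6-fold, adjusted p 8.2e-07) and the collagen cross-linking enzyme Lox one of 3.25 (9.53-fold, adjusted p 2.0e-07). Of 12 genes of ligand latency and activation 9 rose and 1 fell, among them Mmp14, a membrane protease that can release latent ligand, with a rise of 3.41, and Ltbp2, of the latent TGF-beta binding protein family, with 3.19. Itgb8, a subunit of an integrin that activates latent TGF-beta, was the 1 that fell, by 1.29 (adjusted p 0.000304). Of 12 receptors and SMADs 8 rose and 1, the SMAD anchor Zfyve9, fell by 0.30. The ligand-binding receptor Tgfbr2 rose by 2.15 and its partner Tgfbr1 by 1.52. Of 12 inhibitors and feedback genes 6 rose and none fell, with Pmepa1, which sequesters SMADs, at 2.14 and Ski, a relative of Skil, at 0.84. Of the 4 other CCN genes Ccn3 (1.78) and Ccn4 (1.61) rose, and Ccn5 and Ccn6 were not called.

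Markers of other cells moved with these genes in the same comparison, in which 50.9% of all genes were called in either direction. All 12 macrophage and myeloid markers were higher in untreated mutant kidneys, where the log2 of their summed signal lay at 13.83 to 14.32, against 10.76 to 11.03 in untreated WT kidneys. Of 10 markers of fibroblasts, pericytes and smooth muscle 7 were higher, with a summed signal of 12.72 to 13.31 in mutant and 11.45 to 11.70 in WT kidneys. All 8 proximal tubule markers were lower, at 11.54 to 13.09 in mutant and 15.37 to 15.42 in WT kidneys. The 3′ minus 5′ signal of the actin control, a sign of RNA integrity and labelling, was 0.76 to 1.37 in mutant and 1.40 to 1.50 in WT kidneys. Their part in the rise of the members was not tested, apart from the fit with the actin signal as a covariate, in which all 10 members were still called.

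**Figure D2:**
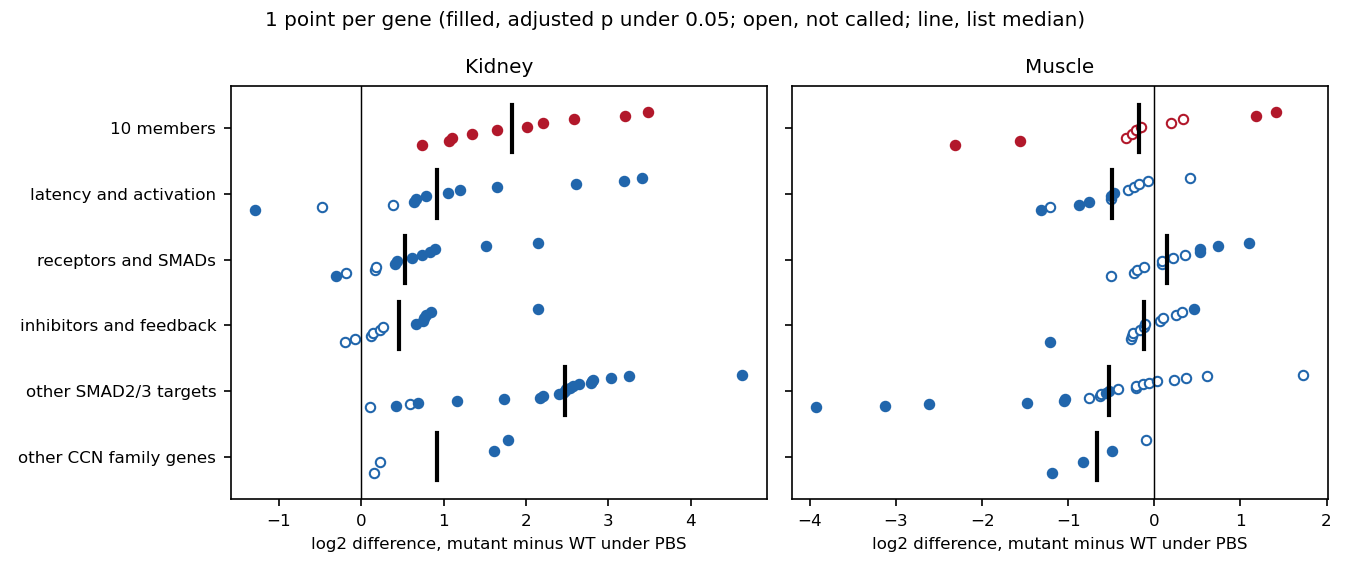
Log2 difference of untreated mutants minus untreated WT in kidney (left) and muscle (right), 1 point for each gene by its leading probe set, for the 10 members and 5 lists of other pathway genes; filled points passed an adjusted p under 0.05 and the line is the list median. The members and the other SMAD2/3 targets lie to the right of 0 in kidney, with medians of 1.83 and 2.47, and on both sides of 0 in muscle.

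The second question was whether the trap changed these genes in mutant kidneys. In limma 0 of 10 members were called, against 2.00% of all genes, and 0 had an unadjusted p under 0.05. The median log2 difference was -0.07 over the members and -0.01 over all genes. Ccn2 had 12.13, 11.43, 12.48 and 12.84 in trap-treated mutant kidneys, against 12.82, 12.17, 12.77 and 13.09 in untreated mutant kidneys, a difference of -0.49 whose 95% interval ran between -1.16 and 0.18 (adjusted p 0.554). Postn was the 1 member whose groups did not overlap, against 8.32% of all genes: 9.16, 9.08, 9.13 and 9.33 with the trap and 8.94, 8.36, 9.04 and 8.93 without it, a difference of 0.36 (interval -0.13 to 0.85, adjusted p 0.553). Intervals of the other 8 members all included 0 and reached at most 0.68 upward and -0.46 downward. None of the 61 measured pathway genes of the other lists was called either, and between 1 and 4 genes of each list had an unadjusted p under 0.05. Of the 8 proximal tubule markers 1 was called higher with the trap, and the log2 of their summed signal was 13.21 to 13.99 in trap-treated and 11.54 to 13.09 in untreated mutant kidneys, while the macrophage sum overlapped (13.82 to 14.33 and 13.83 to 14.32). The 18S control signal was apart, at 12.003 to 12.70 in trap-treated and 12.86 to 13.43 in untreated mutant kidneys. With it as a covariate 0 members were called, and the Ccn2 difference was -1.46 (adjusted p 0.21).

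In WT kidneys the trap also gave no called member on the leading probe sets, against 1.03% of all genes called. In limma 5 of 10 members had an unadjusted p under 0.05, a share that was not counted over all genes. Ccn1 had 7.89, 8.86, 7.95 and 8.21 in trap-treated WT kidneys, against 7.58, 7.23 and 7.30 in untreated WT kidneys. All treated values lay above all untreated ones, with a difference of 0.85 (interval 0.40 to 1.31, adjusted p 0.068), and the second Ccn1 probe set was called at a rise of 0.99 (adjusted p 0.046). Without trap-treated WT replicate 1 the leading Ccn1 probe set was called at 0.97 (adjusted p 0.030) and Postn at 1.04 (adjusted p 0.046). Postn had 7.42, 8.25, 7.28 and 7.998 in trap-treated and 7.08, 6.20 and 7.12 in untreated WT kidneys (difference 0.94, adjusted p 0.082). Ccn2 had 9.55, 10.21, 9.94 and 11.12 in trap-treated and 9.17, 9.43 and 9.11 in untreated WT kidneys (difference 0.97, interval 0.24 to 1.69, adjusted p 0.19). Skil (difference -0.47) and Smad7 (difference -0.31) were the others under an unadjusted p of 0.05, and both lay lower with the trap. These 5 were also the members whose groups did not overlap, against 14.0% of all genes. Of the 5 pathway lists 1 held a called gene, the SMAD inhibitor Pmepa1, which fell by 0.84 (adjusted p 0.020). Macrophage markers had a summed signal of 11.15 to 11.78 in trap-treated and 10.76 to 11.03 in untreated WT kidneys, with 0 of 12 called in limma and 4 under an unadjusted p of 0.05, and their part in the Ccn1 and Postn values was not tested. The 18S control signal was 12.43 to 12.80 in trap-treated and 12.97 to 13.06 in untreated WT kidneys, and with it as a covariate 0 members were called, with Ccn1 at 0.75 (adjusted p 0.30), Postn at 0.72 (adjusted p 0.37) and Ccn2 at 0.51 (adjusted p 0.62).

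The interaction, trap minus PBS in mutants less the same in WT, called 0 members in kidney, against 1.31% of all genes. Its size was largest for Ccn2, at -1.46 (interval -2.45 to -0.47, unadjusted p 0.0066, adjusted p 0.15 in limma), followed by Ccn1 at -0.65 (interval -1.27 to -0.03, adjusted p 0.34). These were the 2 members with an unadjusted p under 0.05. Ccn2 passed once the 18S control signal was added to the fit (adjusted p 0.047).

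Under the trap the genotypes still differed in kidney for all 10 members, each higher in mutants, against 45.4% of all genes called in either direction. The median log2 difference was 1.46 over the members and -0.06 over all genes, and no member's groups overlapped, as for 38.3% of all genes. Fn1 differed by 2.87 (7.32-fold, adjusted p 6.5e-07), Ccn2 by 2.02 (4.04-fold), Tgfb2 by 2.00 (3.99-fold) and Ccn1 by 1.93 (3.82-fold). Tgif1 and Skil each differed by 1.46, Tgfb3 and Postn by 1.43, Tgfb1 by 1.01 and Smad7 by 0.87. Trap-treated mutants against untreated WT likewise had all 10 members higher, with a median of 1.95 and 46.7% of all genes called, and no member's groups overlapped, as for 54.5% of all genes. Fn1 was 9.96-fold, Ccn2 7.91-fold and Ccn1 6.91-fold higher there. The 18S control signal was 12.003 to 12.70 in trap-treated mutant and 12.97 to 13.06 in untreated WT kidneys. With it as a covariate Skil was not called (0.76, adjusted p 0.061 in limma). The trap-treated and the untreated mutants are each set against WT groups in these comparisons, so the values are given side by side only.

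**Figure D3:**
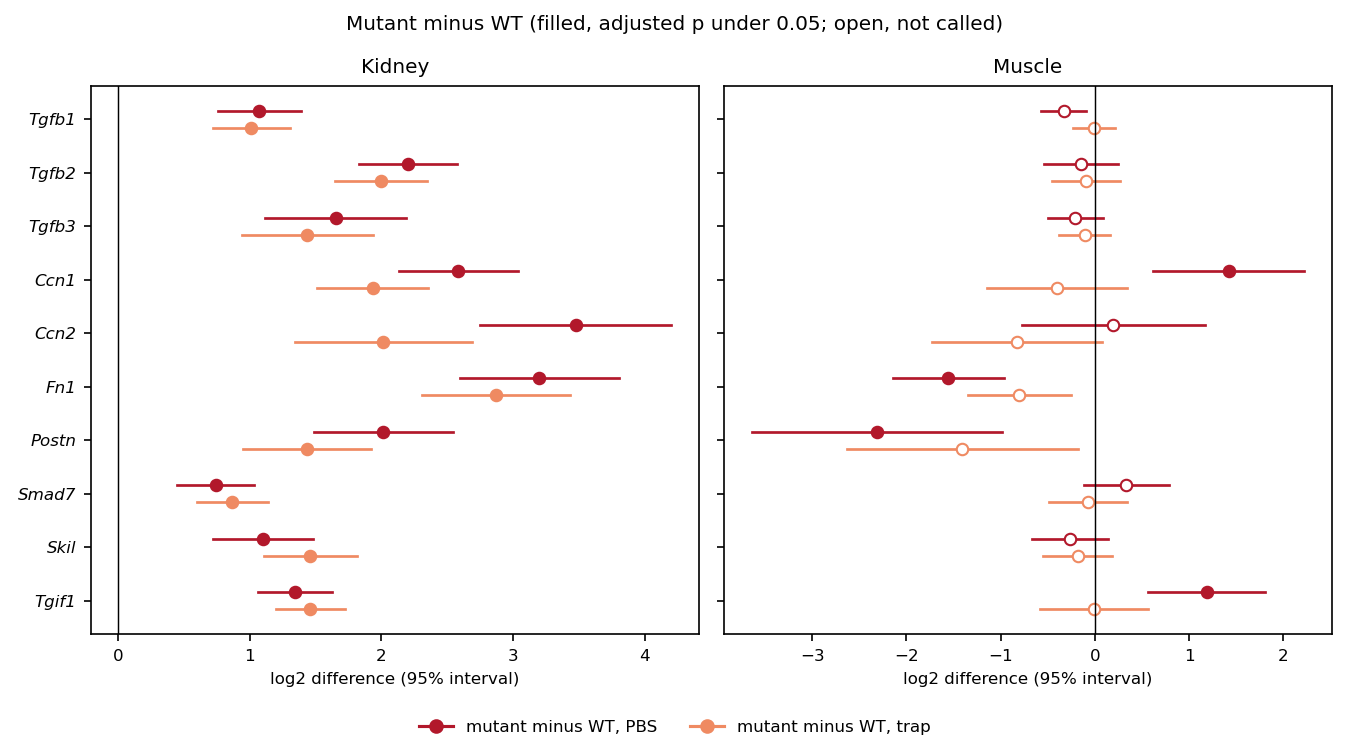
Log2 difference of mutants minus WT under PBS and under the trap, in kidney (left) and muscle (right), with 95% intervals from limma for the leading probe set of each member; filled points passed an adjusted p under 0.05. In kidney all 20 points are filled and above 0, while in muscle 4 of the points under PBS are filled and none of those under the trap.

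In muscle, where Kif3a was not targeted, the same 10 genes split. Under PBS 2 were higher in mutants (Ccn1 and Tgif1), 2 were lower (Fn1 and Postn) and 6 were not called, against 15.5% of all genes called. Their median log2 difference was -0.18, against -0.05 over all genes. The 3 ligands were among those not called: Tgfb1 at -0.33 (interval -0.57 to -0.09, adjusted p 0.059), Tgfb3 at -0.21 (interval -0.50 to 0.08) and Tgfb2 at -0.15 (interval -0.54 to 0.24). The Tgfb1 values did not overlap, as was so for 3 members and 23.3% of all genes in this comparison, with 5.52, 5.64, 5.36 and 5.67 in mutant muscle and 5.90, 6.05 and 5.68 in WT muscle. Tgfb1 passed without WT PBS replicate 3 (adjusted p 0.032), without mutant PBS replicate 2 (adjusted p 0.047) and with array weights (adjusted p 0.017).

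The matrix genes were lower in mutant muscle. Fn1 had 7.83, 8.04, 8.39 and 9.43 in untreated mutant muscle, against 9.73, 9.98 and 10.23 in untreated WT muscle, with no overlap. It fell 2.94-fold (log2 -1.56, interval -2.15 to -0.97, adjusted p 0.0016), and its dimmer probe set fell by 0.49 (adjusted p 0.047). Postn had 5.45, 6.42, 7.97 and 9.32 in mutant and 9.13, 9.72 and 9.96 in WT muscle, a 4.98-fold fall (log2 -2.32, interval -3.64 to -0.99, adjusted p 0.020). Mutant replicate 4 was the highest mutant for both genes and overlapped the WT range for Postn. The mutant values of Postn were far more spread (SD 1.71, n = 4) than the WT values (SD 0.43, n = 3). The Postn call was lost without WT PBS replicate 2 (adjusted p 0.074) or replicate 3 (adjusted p 0.073). Its size rested on single mutants, at 3.26-fold lower without mutant PBS replicate 1 (log2 -1.70, adjusted p 0.048) and 7.96-fold lower without replicate 4 (log2 -2.99, adjusted p 0.0013), while the Fn1 call was kept when any 1 array was left out.

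Ccn1 and Tgif1 went the other way. Ccn1 had 9.27, 7.50, 8.52 and 9.13 in untreated mutant muscle and 6.95, 6.69 and 7.92 in untreated WT muscle, a 2.67-fold rise (log2 1.42, interval 0.61 to 2.22, adjusted p 0.019). The groups overlapped, since mutant replicate 2 lay below WT replicate 3, and the second probe set rose by 1.33. The call was lost without mutant PBS replicate 1 (adjusted p 0.056) or 4 (adjusted p 0.056), or WT PBS replicate 1 (adjusted p 0.069) or 2 (adjusted p 0.107). Tgif1 had 7.99, 6.04, 6.81 and 6.52 in mutant muscle and 5.64, 5.77 and 5.56 in WT muscle, a 2.28-fold rise with no overlap (log2 1.19, interval 0.57 to 1.81, adjusted p 0.012). Without mutant replicate 1, its highest value, the rise was 0.80 (adjusted p 0.0049). Of the remaining members, Ccn2 had 9.99, 7.78, 8.40 and 9.57 in mutant muscle, on both sides of the 8.61, 8.62 and 8.99 in WT muscle (difference 0.20, interval -0.78 to 1.17). Smad7 (0.33, interval -0.11 to 0.78) and Skil (-0.26, interval -0.66 to 0.14) were not called.

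**Figure D4:**
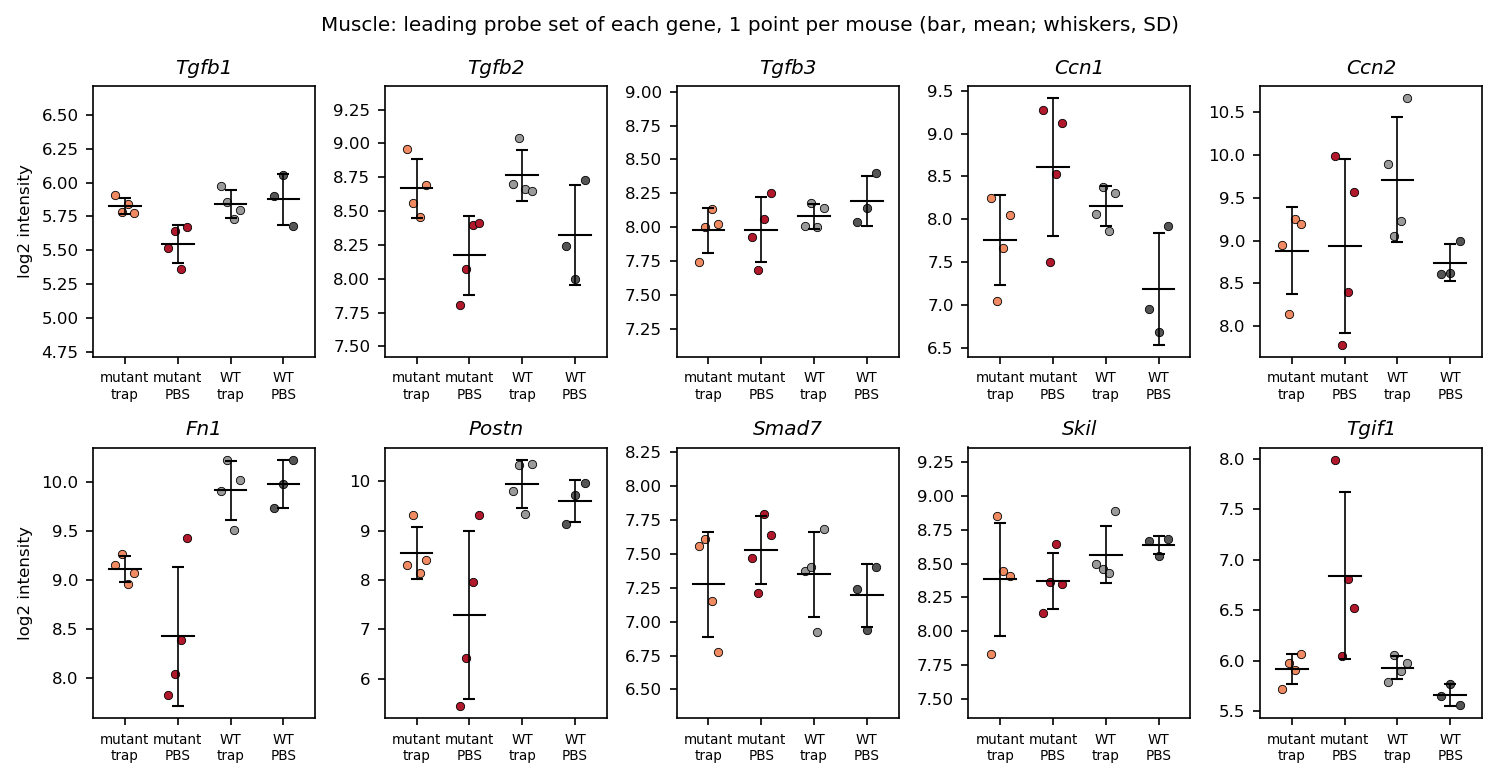
Log2 intensity of the leading probe set of each of the 10 members in muscle, 1 point for each mouse, with the group mean as a bar and the SD as whiskers; n = 4 for each group except untreated WT, n = 3. Untreated mutants lie below untreated WT for Fn1 and above it for Tgif1, and their Postn values run between 5.45 and 9.32.

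Beside the members in muscle, 8 of 21 other SMAD2/3 targets were called lower in untreated mutants and none was called higher. This comparison called 15.5% of all genes, in either direction. The falls were led by the fibrillar collagen genes Col1a1 (-3.93, 15.2-fold lower, adjusted p 2.2e-07) and Col3a1 (-3.13, adjusted p 2.4e-05). Of the 21, 5 lay higher in mutants without being called, by up to 1.73. Of 12 latency and activation genes 5 fell and none rose, among them Itgb8 (-1.31) and Ltbp1, which tethers latent ligand to the matrix (-0.87). Of the 4 other CCN genes Ccn3 (-1.19), Ccn4 (-0.83) and Ccn5 (-0.49) fell. Of 12 receptors and SMADs 4 rose and none fell, with the activin type I receptor Acvr1b at 1.10 and Tgfbr1 at 0.74. On the list of 12 inhibitors and feedback genes the pseudoreceptor Bambi fell by 1.21. The ubiquitin ligase Rnf111, which is not itself an inhibitor of the pathway, rose by 0.46, with overlapping groups. The Rnf111 call was lost in limma in the compared groups alone (adjusted p 0.094). It was also lost with the 18S (adjusted p 0.30) or actin (adjusted p 0.12) signal as a covariate and without some single arrays. With the 18S signal Acvr1b was not called either (0.84, adjusted p 0.070). Of 6 tendon markers 5 were lower in untreated mutant muscle, where the log2 of their summed signal was 10.64 to 11.18, against 12.56 to 12.65 in untreated WT muscle. Of 10 markers of fibroblasts, pericytes and smooth muscle 7 were lower, at 12.79 to 13.25 in mutant and 13.86 to 13.95 in WT muscle. Of 8 muscle fibre markers none was called, 1 of them with an unadjusted p under 0.05 in limma.

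RNA signs moved with genotype in muscle as well. The actin 3′ minus 5′ signal was -0.06 to 0.14 in untreated mutant and 0.16 to 0.18 in untreated WT muscle, and the 18S control signal was 12.50 to 13.13 in mutant and 13.11 to 13.28 in WT muscle. With the actin signal as a covariate only Fn1 of the 4 was still called (-1.41, adjusted p 0.015), beside -1.83 for Postn (adjusted p 0.13), 1.16 for Ccn1 (adjusted p 0.12) and 0.81 for Tgif1 (adjusted p 0.0997). With the 18S signal, Fn1 (-2.12, adjusted p 0.0017) and Postn (-3.50, adjusted p 0.015) were called, and Ccn1 (0.85, adjusted p 0.38) and Tgif1 (0.98, adjusted p 0.20) were not. The part of tendon and fibroblast markers in these falls was not tested.

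In mutant muscle the trap gave 0 called members in limma on the leading probe sets, against 6.19% of all genes called. An unadjusted p under 0.05 was found for 6 of 10 members, a share that was not counted over all genes. Tgif1 had 5.72, 5.97, 5.91 and 6.07 in trap-treated mutant muscle, against 7.99, 6.04, 6.81 and 6.52 in untreated mutant muscle, a difference of -0.93 (interval -1.50 to -0.35, adjusted p 0.054). The difference passed under median centring (adjusted p 0.0495) and quantile normalization (adjusted p 0.0496). It also passed with array weights (adjusted p 0.016) and with only probe sets above the median level (adjusted p 0.039). Without mutant PBS replicate 1, its highest untreated value, it was -0.54 (adjusted p 0.069). Postn had 8.31, 9.32, 8.14 and 8.40 with the trap and 5.45, 6.42, 7.97 and 9.32 without it (difference 1.26, interval 0.03 to 2.48, adjusted p 0.22). Fn1 had 9.16, 9.27, 8.96 and 9.08 with the trap and 7.83, 8.04, 8.39 and 9.43 without it (difference 0.69, interval 0.15 to 1.24, adjusted p 0.13). Single untreated mutants moved these values: without replicate 4, high for both, Postn was called at 1.93 (adjusted p 0.032) and Fn1 at 1.03 (adjusted p 0.0061), and without replicate 1 Postn was at 0.64 (adjusted p 0.57) and not called.

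Ccn1 had 8.24, 7.05, 7.67 and 8.05 in trap-treated mutant muscle and 9.27, 7.50, 8.52 and 9.13 in untreated mutant muscle (difference -0.85, interval -1.60 to -0.11, adjusted p 0.17). Without mutant PBS replicate 2, the low value, Ccn1 was called at -1.22 (adjusted p 0.016) and Tgif1 at -1.19 (adjusted p 0.0061). Tgfb2 had 8.96, 8.56, 8.46 and 8.69 with the trap and 7.81, 8.07, 8.40 and 8.41 without it, with no overlap, as for 2 members and 11.0% of all genes (difference 0.50, adjusted p 0.0999), and 1 of its other probe sets was called higher by 0.54 (adjusted p 0.040). Tgfb1 did not overlap either, with 5.91, 5.78, 5.84 and 5.78 with the trap and 5.52, 5.64, 5.36 and 5.67 without it (difference 0.28, adjusted p 0.13). Array weights in limma brought Tgfb1 to a call (0.34, adjusted p 0.047). Ccn2, Skil, Smad7 and Tgfb3 had intervals that included 0, the widest from -0.95 to 0.85 for Ccn2. The trap in mutant muscle called 6.19% of all genes, in either direction. Of the 21 other SMAD2/3 targets 4 rose with the trap and 1 fell: Col1a1 by 2.45 (5.46-fold, adjusted p 0.000164), Col3a1 by 2.29 (4.90-fold, adjusted p 0.0012), Col1a2 by 1.55 and Col4a1 by 0.89, while Tagln fell by 0.52. Itgav (0.50) and Ccn3 (0.74) rose and Acvr1b fell by 0.88. With the 18S signal as a covariate Itgav, Ccn3 and Acvr1b were not called (adjusted p 0.31, 0.20 and 0.41 in limma). With the actin signal Itgav (adjusted p 0.089) and Acvr1b (adjusted p 0.076) were not called. Itgav was not called on the mean of its probe sets (0.19). Ccn3 was not called without mutant PBS replicate 4 (adjusted p 0.060) or mutant trap replicate 3 or 4. In the compared groups alone Acvr1b was not called (adjusted p 0.056). Of the fibroblast, pericyte and smooth muscle markers 4 of 10 were called higher and 1 lower, with a summed signal of 13.08 to 13.41 with the trap and 12.79 to 13.25 without it. Of 6 tendon markers 2 were called higher, and 4 of the 6 lay higher with the trap. Their mean log2 level was 7.18 to 7.53 with the trap and 6.66 to 7.003 without it. The log2 of their summed signal overlapped, at 10.81 to 11.33 with the trap and 10.64 to 11.18 without it. Of 12 macrophage and myeloid markers 1 was called higher and 6 had an unadjusted p under 0.05. The part of these markers was not tested. The 18S signal was 13.05 to 13.40 with the trap and 12.50 to 13.13 without it, and with it as a covariate 0 members were called.

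In WT muscle the trap called 0 members, against 0.0619% of all genes called. In limma 2 members had an unadjusted p under 0.05, a share that was not counted over all genes. Ccn1 had 8.06, 8.38, 7.87 and 8.30 in trap-treated and 6.95, 6.69 and 7.92 in untreated WT muscle (difference 0.97, interval 0.16 to 1.77, adjusted p 0.37). Tgfb2 was the other (difference 0.44, interval 0.05 to 0.83, adjusted p 0.404), with 8.70, 9.04, 8.67 and 8.65 in trap-treated and 8.24, 7.9998 and 8.73 in untreated WT muscle. Both genes' groups overlapped. Ccn2 and Tgif1 were the 2 members without overlap, against 13.6% of all genes. Ccn2 had 9.89, 9.05, 9.23 and 10.67 in trap-treated and 8.61, 8.62 and 8.99 in untreated WT muscle (difference 0.97, 95% interval just including 0, adjusted p 0.45), and Tgif1 differed by 0.27. Markers of other cells moved here too: 9 of 12 macrophage and myeloid markers had an unadjusted p under 0.05 in limma and 0 were called, with a summed signal of 11.81 to 12.44 in trap-treated and 11.28 to 11.48 in untreated WT muscle. All 6 tendon markers lay lower with an unadjusted p under 0.05 and 0 called, at 11.50 to 12.29 in trap-treated and 12.56 to 12.65 in untreated WT muscle. The part of these markers was not tested. The interaction in muscle called 0 members, against 0.141% of all genes, with 2 under an unadjusted p of 0.05: Ccn1 at -1.82 (interval -2.91 to -0.72, adjusted p 0.16) and Tgif1 at -1.20 (interval -2.04 to -0.35, adjusted p 0.21). Without mutant PBS replicate 2 both passed, Ccn1 at -2.19 (adjusted p 0.017) and Tgif1 at -1.47 (adjusted p 0.034).

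Under the trap no member was called between the genotypes in muscle, against 1.28% of all genes, and 2 had an unadjusted p under 0.05 in limma. Those 2 were Fn1, with 9.16, 9.27, 8.96 and 9.08 in mutant and 9.91, 10.23, 9.51 and 10.02 in WT muscle (difference -0.80, interval -1.35 to -0.26, adjusted p 0.17), and Postn (difference -1.41, interval -2.63 to -0.18, adjusted p 0.32). Neither gene's groups overlapped, against 9.49% of all genes without overlap. In the fit of only these 2 groups both were called, Fn1 at an adjusted p of 0.027 and Postn at 0.040, and without mutant PBS replicate 4 Fn1 passed as well (adjusted p 0.0211). Under the trap 1 of the 10 fibroblast, pericyte and smooth muscle markers and 2 of the 6 tendon markers were lower in mutant muscle, and their part was not tested. For trap-treated mutants against untreated WT muscle, 0 members and 0.860% of all genes were called, and 1 member, Fn1 (-0.87, interval -1.45 to -0.28, adjusted p 0.22), had an unadjusted p under 0.05 in limma. It was also the 1 member whose groups did not overlap, against 11.7% of all genes. Fn1 was called there without mutant PBS replicate 4 (adjusted p 0.030).

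**Figure D5:**
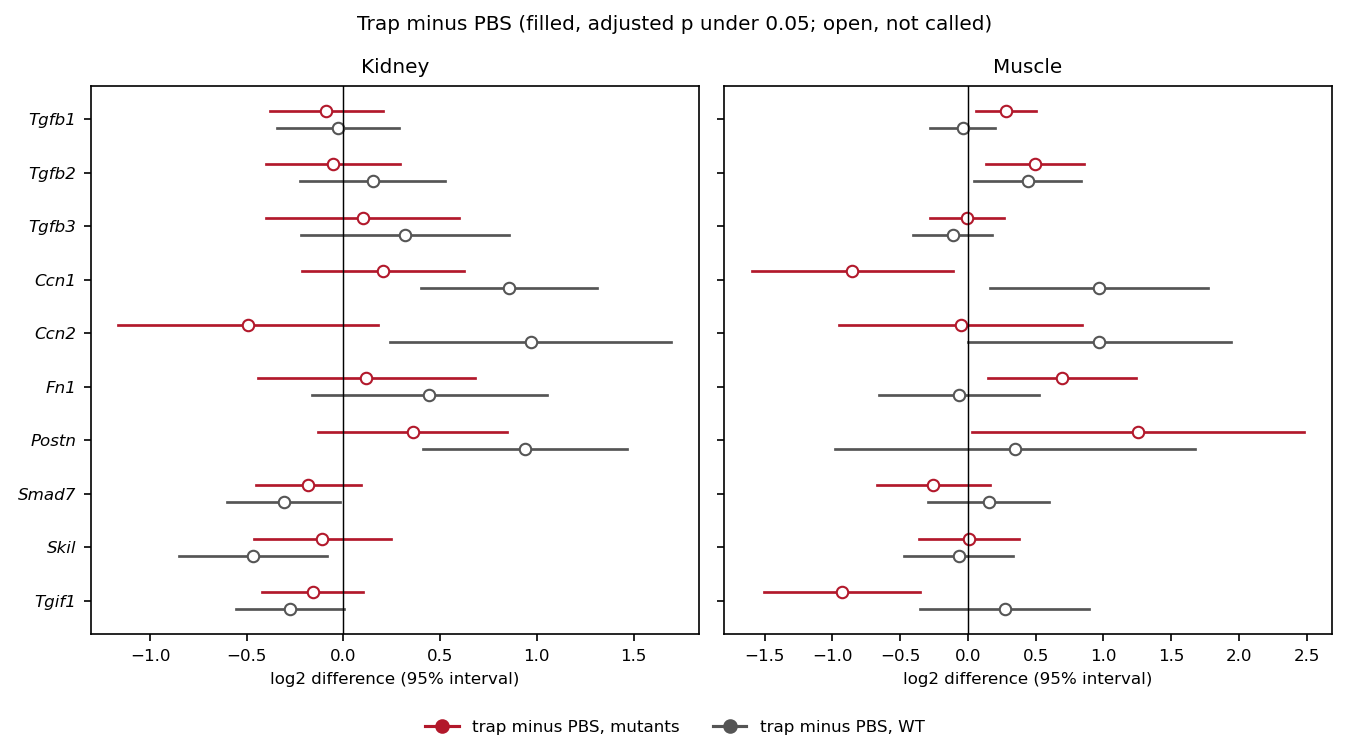
Log2 difference of trap minus PBS in mutants and in WT, in kidney (left) and muscle (right), with 95% intervals from limma for the leading probe set of each member; open points did not pass an adjusted p under 0.05. None of the points passed, and the widest interval is that of Postn in WT muscle, between -0.98 and 1.67.

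Kidney and muscle of the same animals were then set against each other, 1 probe set at a time. In untreated WT mice 2 members were higher in kidney, 4 were lower and 4 were not called, against 64.1% of all genes called. Tgfb3 was lower in kidney, with a difference of -3.14 (5.02, 5.24 and 4.91 in kidney, against 8.04, 8.14 and 8.40 in muscle, adjusted p 4.3e-13) and so was Tgfb2, with -2.62 (adjusted p 1.7e-12). Postn (-2.80) and Fn1 (-1.70) were lower in kidney, and Tgif1 and Smad7 were higher by 1.18 and 0.79. Tgfb1 (0.10, interval -0.18 to 0.39), Ccn1 (0.19), Ccn2 (0.50) and Skil (0.45, interval 0.04 to 0.85, adjusted p 0.051) were not called. Leaving out any of 4 trap-treated animals brought Skil to an adjusted p between 0.027 and 0.044.

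The genotype effect under PBS differed between the tissues for 8 of 10 members, all with the larger value in kidney, against 36.5% of all genes called in either direction. The difference of the differences was 4.76 for Fn1 (interval 3.93 to 5.58, adjusted p 3.8e-10) and 4.33 for Postn (interval 2.90 to 5.76, adjusted p 1.4e-05; 3.68 without the animal mutant PBS replicate 1 and 4.97 without replicate 4), the 2 genes that rose in mutant kidney and fell in mutant muscle. It was 3.28 for Ccn2, 2.35 for Tgfb2, 1.86 for Tgfb3, 1.40 for Tgfb1, 1.36 for Skil and 1.17 for Ccn1 (interval 0.26 to 2.08, adjusted p 0.042). The Ccn1 call was lost without the animal WT PBS replicate 3 (0.76, adjusted p 0.257), and also without mutant PBS replicate 2 (adjusted p 0.0633) or 3 (adjusted p 0.0805), mutant trap replicate 3 (adjusted p 0.0509) or WT trap replicate 4 (adjusted p 0.0512). Tgif1 rose in both tissues of untreated mutants, and its effects differed by 0.16 (interval -0.51 to 0.83, adjusted p 0.75). Smad7 differed by 0.41 (interval -0.12 to 0.93, adjusted p 0.24). For the trap in mutants, 0 members differed between tissues on the leading probe sets, against 4.66% of all genes, with 4 under an unadjusted p of 0.05 in limma, and 1 other Tgfb2 probe set was called (-0.89, adjusted p 0.041). Without the animal mutant PBS replicate 2, Ccn1 (1.28, adjusted p 0.0358) and Tgif1 (1.02, adjusted p 0.0281) passed.

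Over the 8 groups the order of the levels depended on the gene. On its leading probe set Tgfb1 averaged 6.96 ± 0.20 and 7.05 ± 0.18 (SD, n = 4 each) in trap-treated and untreated mutant kidneys. It averaged between 5.55 and 5.98 in the other 6 groups. The dim second Tgfb1 probe set did not share this order, at 4.99 in untreated mutant and 5.12 in untreated WT kidneys. On the leading probe sets Tgfb2 and Tgfb3 were highest in muscle, at 8.17 to 8.76 and 7.98 to 8.19, intermediate in mutant kidneys, at 7.85 and 7.90 for Tgfb2 and at 6.81 and 6.71 for Tgfb3 with and without the trap, and lowest in WT kidneys. The other 3 Tgfb2 probe sets did not share this order: each had a higher mean in untreated mutant kidney than in untreated mutant muscle, at 7.55 against 7.003, 6.99 against 6.92 and 5.78 against 5.62. Ccn2 averaged 12.22 ± 0.60 and 12.71 ± 0.39 in trap-treated and untreated mutant kidneys (n = 4 each) and at most 10.20 elsewhere, and Fn1 11.60 ± 0.49 and 11.48 ± 0.48 there and at most 9.98 elsewhere. Postn was highest in WT muscle, at 9.95 ± 0.48 with the trap (n = 4) and 9.60 ± 0.43 without it (n = 3), and lowest in untreated WT kidney, at 6.80 ± 0.52 (n = 3). On their leading probe sets Smad7, Skil and Tgif1 were each highest in the 2 mutant kidney groups. The dim second Skil probe set averaged 4.31 in untreated mutant and 4.34 in untreated WT kidneys.

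For each member the gene whose profile lay nearest was taken as the one with the smallest root mean square difference between centred log2 values over the 15 arrays of a tissue. In kidney these were Rap2a for Tgfb1 (0.13), Birc3 for Tgfb2 (0.19), Emilin1 for Tgfb3 (0.18), Cnn2 for Ccn1 (0.23), Spsb1 for Ccn2 (0.31), Csf1r for Postn (0.29), Adcy7 for Fn1 (0.19), Trim47 for Smad7 (0.16), Tmem263 for Skil (0.16) and Npdc1 for Tgif1 (0.13), all on the log2 scale. In muscle they were Iqcc (0.09), Adss (0.17), Wdsub1 (0.09), Klf6 (0.33), Ifi207 (0.45), Ptn (0.49), Rcn3 (0.20), Sh2b3 (0.16), Lpcat1 (0.14) and Cry2 (0.17) in the same order of members. No member had the same nearest gene in both tissues. The size of a difference depends on how much the member itself varied. Tgfb1 in muscle had an SD of 0.18 over the arrays, beside its difference of 0.09. Fn1 in kidney had an SD of 1.61, beside 0.19. Arrays of a group share genotype and treatment, so a small difference describes these 15 arrays.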

How the data were processed

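The values are the log2 intensities that the authors deposited for 30 arrays, 1 for each of 2 tissues of 15 mice; the sources used here do not state the authors' normalization, and the log base follows from the range of the values. Tissue was snap-frozen and RNA extracted with QIAZOL, per the labels' protocols. Of 35088 features, 31563 had 1 gene symbol in the platform annotation, 825 had several and 2700 had none. All 31563 were fitted in limma 3.58.1 (R 4.3.3, lmFit and eBayes) with 1 mean per group, and p-values were adjusted by Benjamini-Hochberg over all of them. A gene was called at an adjusted p under 0.05 on its leading probe set, the brightest on average in that tissue. Shares of all genes called use this threshold, and genes under an unadjusted p of 0.05 were not counted over the array. Fits of both tissues used the animal, tied by the number in the titles, as a random block (consensus correlation 0.0717; deviations of the tissues of an animal had a median correlation of 0.0448). No filter was applied to low signal. Precision is limited by the number of arrays. Nothing in the labels gives a batch.

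All 10 members were named in every comparison, and from each of 5 pathway lists the 2 called genes of largest change under PBS between genotypes and under the trap in mutants; any other pathway gene was named after its values were seen. The nearest gene was the non-member with the smallest root mean square difference after centring on the tissue mean. The members and lists were chosen with earlier results of these data known. Of the 65 pathway genes listed 61 were measured, and of 70 marker genes 67. Sequences came from the RefSeq promoter table. The fits were tried on simulated data for the genotype comparison under PBS, with far fewer changed probe sets than were called in kidney. That run therefore cannot show how the fits behave with so many changes. Alternatives were other normalizations and filters, array weights, control signals as covariates, the replicate number as a block, fits of the compared groups alone and leaving out each array. The animals are separate samples, and p-values weigh a group difference against the spread between animals within groups, pooled over the groups of a fit. Figures were drawn with matplotlib 3.10.9.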

Additional observations from a re-analysis of the deposited data

Results flagged for a closer look

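Of 60 member groups of 4 arrays, 4 held an array that lay apart from the other 3, and chance gives about 1 in 20 such groups. In kidneys of trap-treated mutants 1 Tgfb2 value was 7.52, with the others at 7.94 to 7.97. In trap-treated WT muscle 1 Tgfb2 value was 9.04, with the others at 8.65 to 8.70, and 1 Skil value was 8.89, with the others at 8.43 to 8.50. In kidneys of untreated mutants 1 Postn value was 8.36, with the others at 8.93 to 9.04.

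The genotype effect under PBS differed between kidney and muscle on 13 of 18 probe sets, against 35.1% of all probe sets, by the test of the difference in limma. The difference, kidney minus muscle, was 4.76 and 2.86 for the 2 Fn1 probe sets, 4.33 for Postn and 3.28 for Ccn2. It was 2.35, 1.36, 3.12 and 3.13 for the 4 Tgfb2 probe sets, 1.86 for Tgfb3 and 1.40 for Tgfb1. It was 1.17 and 1.43 for the 2 Ccn1 probe sets and 1.36 for Skil. The effect of the trap in mutants differed on 1 Tgfb2 probe set, by -0.89, against 4.04% of all probe sets.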

How the results depend on the processing

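No called difference changed its direction under any alternative that was run. All 10 members were called between genotypes in kidney, with and without the trap, when any 1 array was left out. Of the counts of called members over all comparisons and alternatives, 356 lay within 1.5 times the reported count and 23 did not. For the trap in WT kidney (0 reported) the count was 1 with array weights, 1 with the actin signal as a covariate and 0 to 2 when 1 array was left out. The kidney interaction (0) gave 1 with the 18S signal as a covariate. In muscle between genotypes under PBS (4) it was 1 in a fit of the compared groups alone, where Fn1 was called, 2 with the 18S signal, 1 with the actin signal and 2 to 5 without 1 array. For the trap in mutant muscle (0) it was 1 with probe sets above the median level, 1 with median centring, 1 with quantile normalization, 2 with array weights and 0 to 2 without 1 array. Between genotypes under the trap in muscle (0) it was 1 with array weights, 2 in a fit of the compared groups alone and 0 to 1 without 1 array. The muscle interaction (0) gave 1 with array weights and 0 to 2 without 1 array. Trap-treated mutants against untreated WT in muscle (0) gave 1 in a fit of the compared groups alone and 0 to 1 without 1 array, and the trap effect between tissues (0) gave 0 to 2 without 1 animal. The cause of these shifts was not tested. Deviations of same-numbered arrays of different groups correlated at a median of 0.03 in kidney and -0.01 in muscle, and at most at 0.34 and 0.29. Kidney and muscle of the same animal had a median of only 0.0448. This measure therefore cannot decide whether the replicate number stands for anything shared. With the replicate number as a block, 4 members were again called in muscle under PBS, Fn1 at -1.68, Postn at -2.57, Ccn1 at 1.31 and Tgif1 at 1.20, and 10 in kidney. Without the animal as a block, the genotype effect under PBS on Ccn1 differed between tissues by 1.17 (adjusted p 0.0544 in limma). With each array centred on its median it differed by 1.02 (adjusted p 0.067), so the call was lost in both fits. The 3 untreated WT arrays of each tissue limit every comparison that uses them.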
